A study of Mus musculus with 12 samples.

Results

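Tubule injury and repair genes are those that kidney tubule cells switch on when they are damaged, die, lose their specialised features or regrow. The 10 genes described here (Havcr1, Lcn2, Spp1, Clu, Cd44, Vcam1, Sox9, Sox4, Prom1 and Cd24a) were chosen by symbol from the 37681 genes of the count table, with no measured value in the rule. All 10 were found and all 10 passed the filter on low counts, which left 19399 genes to test.

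The study asked how a permanently active HIF1α changes the kidney. HIF1α is the oxygen-regulated subunit of a transcription factor, and TRACK mice carry a mutant form of it that stays active in normal oxygen, driven in the proximal tubule by the γ-glutamyl transferase promoter. RNA was sequenced from a thin outer slice of kidney cortex of untreated male C57BL/6 mice, 18 months old. The 3 transgenic mice (TG+, numbers 43-29, 43-49 and 43-75) were compared with 3 wild-type littermates (TG-, numbers 43-26, 43-50 and 43-76), with a library from each of the 2 kidneys of a mouse, so 12 libraries in all. The labels do not say which mice share a litter. The name of the deposited table speaks of 3 pairs, 43-29 with 43-26, 43-49 with 43-50 and 43-75 with 43-76, without saying what a pair shares. The promoter limits the transgene to proximal tubule, while the slice holds every cell type of the cortex.

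The proximal tubule reabsorbs most of the filtered solutes and is the segment most easily damaged by lack of oxygen or by toxins. Surviving tubule cells flatten, lose their transporters, display the phosphatidylserine receptor encoded by Havcr1 (KIM-1), re-express developmental transcription factors such as Sox9, and divide. Most then regain their mature form, while some stay in an incompletely repaired state marked by Vcam1, Cd44 and other adhesion and signalling genes.

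The libraries held between 21888584 and 33704850 counted reads, and levels are given as CPM, the count scaled to the normalized library size of its sample, after the 2 kidneys of each mouse were summed. Hif1a, whose mouse gene has a row while the mutant has no row of its own, was at 91.7, 109 and 86.3 CPM in 43-29, 43-49 and 43-75 and at 107, 103 and 103 CPM in 43-26, 43-50 and 43-76, so the groups overlapped and this gene gives no check of the genotype labels. The tissue label was checked against 10 proximal tubule markers, which summed to between 25867 and 36640 CPM in every mouse. Adjusted p-values come from edgeR's quasi-likelihood test on 3 against 3 mice with Benjamini-Hochberg adjustment over all 19399 genes. Calls, higher or lower, required an adjusted p below 0.01 together with a ratio of TG+ to TG- over 2 or under 0.5, and a second threshold of 0.05 without a fold was also read. With 3 against 3 mice there are 20 ways to assign genotypes, so an exact permutation test cannot go below a 2-sided p of 0.1.

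Havcr1 and Cd44 rose in TG+ kidney cortex past both the 0.01 and the 2-fold limit. At an adjusted p below 0.05 without a minimum fold, Sox9, Vcam1 and Cd24a rose as well. The remaining 5 genes (Lcn2, Spp1, Clu, Sox4 and Prom1) did not pass either threshold, although their estimates also lay above 0. With a block for the 3 pairs in the name of the table, Prom1 (edgeR adjusted p = 0.00371), Sox4 (0.0111) and Lcn2 (0.0380) passed 0.05, while Clu (0.0999) and Spp1 (0.354) did not. The share of all tested genes past 0.05 under this block is not given here. Without the block, the call held for 2 of 10 genes higher and 0 of 10 lower, where 3.77% of all tested genes were called higher and 0.211% lower. At 0.05 it was 5 of 10 higher and 0 lower, against 15.4% and 10.9% of all genes. DESeq2 also gave 0 lower calls, and at an unadjusted p below 0.05 edgeR gave 9 of 10 higher and 0 lower, against 21.9% and 17.2% of all genes. No estimate of the 10 was negative under any of 14 alternatives. Their median on the log2 scale was 0.65, against 0.01 for the median tested gene. With scaling by library size alone the median of all genes moved to 0.13 and that of the 10 genes to 0.77.

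**Figure D1:**
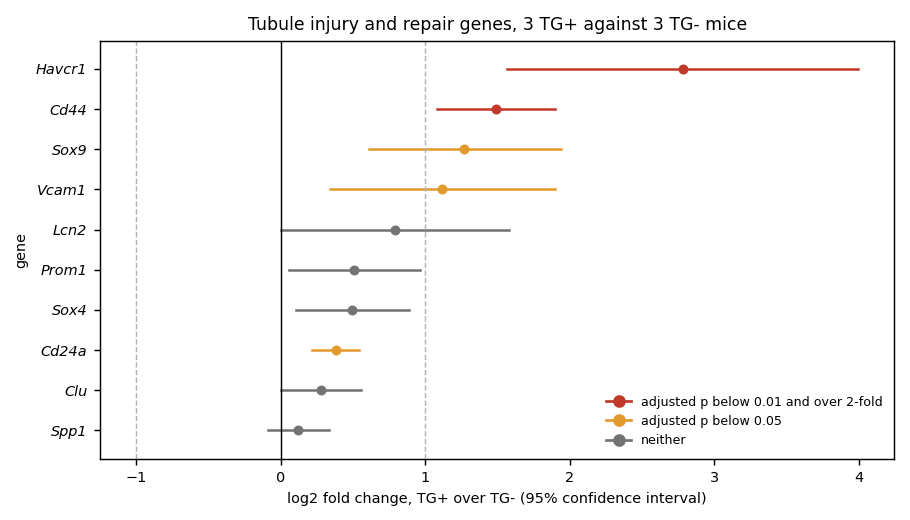
Log2 fold change of TG+ over TG- (horizontal axis) for the 10 genes, with its 95% confidence interval from the edgeR model of 3 against 3 mice; dashed lines mark a 2-fold change in either direction. Havcr1 (2.78) and Cd44 (1.49) pass both limits, Sox9, Vcam1 and Cd24a pass 0.05, and Spp1 (0.12) is the gene whose interval reaches furthest below 0.

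The first genes are those whose products are shed or secreted by injured tubules and are measured in urine or blood. Havcr1 (ENSMUSG00000040405, chromosome 11: 46735080-46779578, plus strand, GRCm38) encodes KIM-1, which lets a tubule cell engulf its dead neighbours and is scarce in healthy kidney. Its level was 26.0, 12.5 and 22.5 CPM in TG+ mice 43-29, 43-49 and 43-75 and 5.07, 2.96 and 0.798 CPM in TG- mice 43-26, 43-50 and 43-76. The lowest TG+ mouse was thus above the highest TG- mouse, and the TG- mice themselves ranged widely. The mean was 20.4 ± 7.01 CPM against 2.94 ± 2.14 CPM (SD, n = 3 mice each), a 6.88-fold rise (log2 fold change 2.78, SE 0.52, edgeR adjusted p = 0.00750, exact permutation p = 0.1). The size of this rise was less certain than its direction, since the 95% confidence interval of the fold ran from 2.97 to 16.0. The call at 0.01 was lost without TG+ mouse 43-29 (edgeR adjusted p = 0.0196), without TG+ mouse 43-75 (0.0262), without TG- mouse 43-50 (0.0287) and with the second kidney of each mouse alone (0.0117). Over all 14 alternatives the adjusted p lay between 3.65e-05 and 0.0287 and the log2 fold change between 2.34 and 3.40. Between the kidneys of a mouse, Havcr1 differed most in TG- mouse 43-26, with 3.22 CPM in kidney 1 and 6.99 CPM in kidney 2. Both of those libraries were below the lowest TG+ library, which had 12.3 CPM.

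Lcn2 (ENSMUSG00000026822, chromosome 2: 32384633-32388252, minus strand, GRCm38) encodes the iron-siderophore carrier lipocalin 2, or NGAL, a urine marker of acute injury made largely by distal segments. Lcn2 was low in all mice, at 1.66, 1.25 and 1.17 CPM in 43-29, 43-49 and 43-75 and at 1.17, 0.770 and 0.409 CPM in 43-26, 43-50 and 43-76, or 20 to 82 reads per mouse. The groups did not overlap, but by a margin smaller than the rounding of these values. The difference (log2 fold change 0.79, 95% confidence interval 0.0035 to 1.58, edgeR adjusted p = 0.127, exact permutation p = 0.1) did not pass. Its kidneys disagreed: with kidney 1 alone the log2 fold change was 1.18 (edgeR adjusted p = 0.0280) and with kidney 2 alone 0.38 (0.611), while the adjusted p over all alternatives lay between those values. Leaving out TG- mouse 43-26 gave 1.18 (edgeR adjusted p = 0.0385) and leaving out TG- mouse 43-76 gave 0.49 (0.258). The 2 libraries of 43-49 were at 1.78 and 0.675 CPM, a ratio of 2.64.

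Spp1 (ENSMUSG00000029304, chromosome 5: 104435118-104441050, plus strand, GRCm38) encodes osteopontin, a secreted phosphoprotein that healthy distal tubules make and injured tubules make in excess. It was abundant in every mouse, with 689, 602 and 658 CPM in 43-29, 43-49 and 43-75 and 605, 659 and 527 CPM in 43-26, 43-50 and 43-76. The groups overlapped, TG- mouse 43-50 lying above TG+ mouse 43-49. The log2 fold change was 0.12 with a 95% confidence interval of -0.09 to 0.33 (edgeR adjusted p = 0.367, exact permutation p = 0.5), so the interval holds no rise of 2-fold.

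Clu (ENSMUSG00000022037, chromosome 14: 65968483-65981547, plus strand, GRCm38) encodes clusterin, a secreted chaperone that binds misfolded proteins. Its levels were 394, 343 and 324 CPM in 43-29, 43-49 and 43-75 and 260, 343 and 271 CPM in 43-26, 43-50 and 43-76. TG- mouse 43-50 lay within the TG+ range, while the other 2 TG- mice were below all of them. The log2 fold change of 0.28 (95% confidence interval 0.0047 to 0.55, edgeR adjusted p = 0.122, exact permutation p = 0.3) did not pass. The estimate was 0.41 without 43-50 (edgeR adjusted p = 0.0250), 0.20 without 43-26 (0.298) and 0.18 without 43-29 (0.326). Over all alternatives the estimate ran from 0.18 to 0.41 and the adjusted p from 0.0124 to 0.326.

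The adhesion genes came next, and both lay more than 2-fold higher in TG+ by their estimates. Cd44 (ENSMUSG00000005087, chromosome 2: 102811141-102901665, minus strand, GRCm38) encodes the cell surface receptor for hyaluronan, found on leukocytes and on regenerating tubule cells. It was at 13.1, 11.3 and 11.9 CPM in 43-29, 43-49 and 43-75, and at 5.67, 3.71 and 3.54 CPM in 43-26, 43-50 and 43-76. The TG+ mice were close together and all well above the highest TG- mouse. Cd44 rose 2.81-fold, from 4.31 ± 1.18 to 12.1 ± 0.880 CPM (SD, n = 3 mice each; log2 fold change 1.49, SE 0.18, edgeR adjusted p = 0.00104, exact permutation p = 0.1). The call was kept in all 14 alternatives, with log2 fold changes of 1.36 to 1.73 and adjusted p-values up to 0.00573. One library stood a little apart, kidney 2 of 43-49 at 8.81 CPM against 13.7 CPM in its kidney 1, and it was still above all 6 TG- libraries. The gene overlaps the annotated gene Gm23731, which has a row in the table, and the sources used here do not say how reads in such overlaps were counted.

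Vcam1 (ENSMUSG00000027962, chromosome 3: 116109949-116129688, minus strand, GRCm38) encodes an adhesion molecule that holds lymphocytes and monocytes through α4 integrins, present on activated endothelium, parietal cells and incompletely repaired proximal tubule. Levels were 43.6, 24.3 and 35.7 CPM in 43-29, 43-49 and 43-75 and 24.8, 12.6 and 10.3 CPM in 43-26, 43-50 and 43-76. The groups met at TG- mouse 43-26, which was slightly above TG+ mouse 43-49. With means of 34.5 ± 9.71 against 15.9 ± 7.81 CPM (SD, n = 3 mice each), the 2.17-fold rise passed 0.05 but not 0.01 (log2 fold change 1.12, SE 0.34, edgeR adjusted p = 0.0434, exact permutation p = 0.2). Leaving out 43-26 gave a log2 fold change of 1.59 that passed 0.01 (edgeR adjusted p = 0.00569), as did the 3 named pairs as a block (0.00574) and each library as a sample (0.00206). The 0.05 threshold was missed without 43-29 (0.114), 43-75 (0.105), 43-50 (0.129) or 43-76 (0.121), with kidney 2 alone (0.0804) and with DESeq2 (0.0654), and the adjusted p over all alternatives was 0.00206 to 0.129. In both groups the kidneys of a mouse were close, differing at most 1.23-fold.

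**Figure D2:**
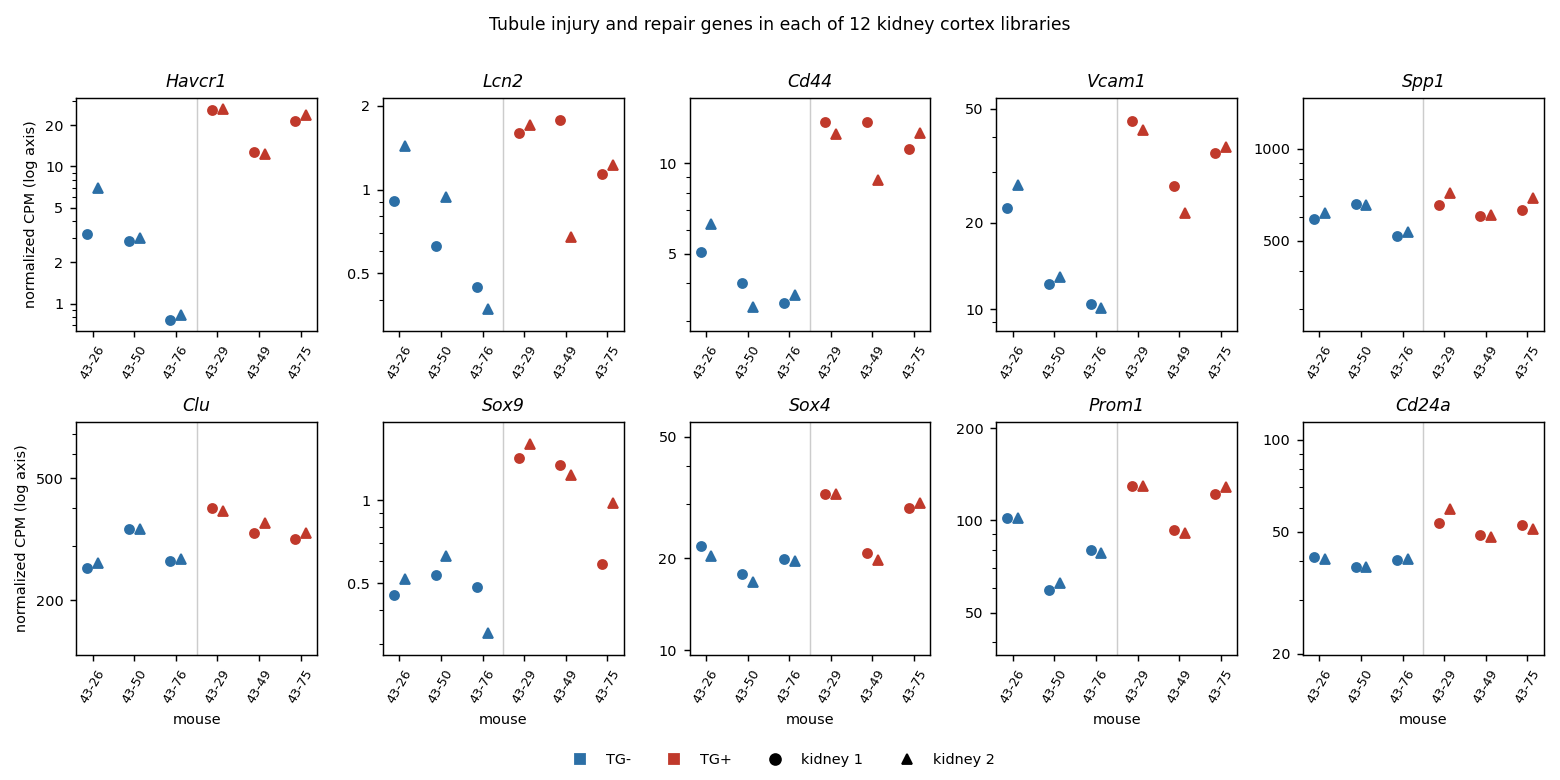
Normalized CPM (vertical log axes, a separate range for each gene) of the 10 genes in each of 12 libraries, by mouse; circles are kidney 1, triangles kidney 2, blue TG- and red TG+. Havcr1, Cd44 and Cd24a separate completely by library. Both 43-26 libraries stand above the other TG- libraries for Havcr1, Cd44 and Vcam1, and Spp1 and Clu overlap.

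Promoter windows of Havcr1 and Cd44, the 2 genes that were called, are shown because the transgene encodes a transcription factor whose family binds a short hypoxia response core. The windows run from 250 bases before to 50 bases after an annotated RefSeq start (GRCm38.p6, which is not the build of the counts), 5′ to 3′ on the strand of the gene. Capitals mark matches to the motifs searched on both strands. The hypoxia response core was searched as ACGTG and also in the related form that begins with another base, GCGTG, and a stretch may match more than one form. The site of AP-1, the dimer of FOS and JUN, was searched as TGANTCA, and that of NF-kB by its usual form with an open centre. Havcr1 has 3 such windows, at chr11:46739973-46740272, chr11:46750261-46750560 and chr11:46750918-46751217 on the plus strand, and that of Cd44 lies at chr2:102901616-102901915 on the minus strand.
Havcr1 window 1: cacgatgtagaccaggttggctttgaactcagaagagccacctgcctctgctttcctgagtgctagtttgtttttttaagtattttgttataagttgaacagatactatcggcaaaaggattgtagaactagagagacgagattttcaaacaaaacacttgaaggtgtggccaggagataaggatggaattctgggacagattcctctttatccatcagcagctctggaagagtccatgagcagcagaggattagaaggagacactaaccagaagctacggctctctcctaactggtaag
Havcr1 window 2: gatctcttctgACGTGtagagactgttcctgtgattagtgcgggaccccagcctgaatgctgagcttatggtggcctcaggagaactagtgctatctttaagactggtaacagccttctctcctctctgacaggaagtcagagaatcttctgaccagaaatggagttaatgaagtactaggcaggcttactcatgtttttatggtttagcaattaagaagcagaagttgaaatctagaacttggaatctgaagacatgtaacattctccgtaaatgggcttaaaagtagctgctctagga
Havcr1 window 3: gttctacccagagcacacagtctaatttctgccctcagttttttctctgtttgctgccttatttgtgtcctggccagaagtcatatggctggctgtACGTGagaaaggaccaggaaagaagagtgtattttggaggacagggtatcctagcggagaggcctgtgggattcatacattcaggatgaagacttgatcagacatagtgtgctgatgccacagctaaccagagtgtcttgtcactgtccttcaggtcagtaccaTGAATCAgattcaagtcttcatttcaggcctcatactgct
Cd44: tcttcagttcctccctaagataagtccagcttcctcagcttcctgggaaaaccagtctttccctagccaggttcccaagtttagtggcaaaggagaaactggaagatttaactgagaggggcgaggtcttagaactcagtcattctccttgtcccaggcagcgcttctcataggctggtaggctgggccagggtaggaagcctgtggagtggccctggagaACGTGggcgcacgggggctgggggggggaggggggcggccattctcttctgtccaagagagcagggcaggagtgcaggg

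In the Cd44 window the ACGTG stands at positions -29 to -25, counting the first transcribed base as 0. Havcr1 windows 2 and 3 hold an ACGTG at -239 to -235 and at -154 to -150, the latter together with an AP-1 match from 10 to 16, and window 1 holds none of the motifs. Of the other members with a window, Sox4 has GCGTG on the opposite strand at -137 to -133, each of the 2 Prom1 windows has a TGANTCA match, and Lcn2 and Spp1 have no match. Among 32851 windows of the same length, 19.6% hold ACGTG, 43.8% hold at least one of the hypoxia cores, 7.81% hold TGANTCA and 5.56% hold the NF-kB form. Matches this common describe the letters of a window and no binding. No window was found for Vcam1, Clu, Sox9 and Cd24a.

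The last 4 genes mark progenitor-like or dedifferentiated tubule cells. Sox9 (ENSMUSG00000000567, chromosome 11: 112782224-112787760, plus strand, GRCm38) encodes a developmental transcription factor that surviving tubule cells turn on soon after injury. Its counts were low, at 1.52, 1.29 and 0.777 CPM in 43-29, 43-49 and 43-75 and at 0.487, 0.578 and 0.409 CPM in 43-26, 43-50 and 43-76, from 20 to 75 reads per mouse. All TG+ mice were above all TG- mice, but single libraries overlapped. Kidney 1 of TG+ mouse 43-75 was at 0.587 CPM and kidney 2 of TG- mouse 43-50 at 0.628 CPM. The 2.41-fold rise passed 0.05 (log2 fold change 1.27, SE 0.29, edgeR adjusted p = 0.0152, exact permutation p = 0.1). Sox9 passed 0.01 with DESeq2 (adjusted p = 0.00406), with each library as a sample (edgeR adjusted p = 4.17e-04), without 43-75 (0.00828) and with the 3 named pairs as a block (0.00800), and missed 0.05 without 43-76 (0.0603) and with kidney 1 alone (0.0523).

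Sox4 (ENSMUSG00000076431, chromosome 13: 28948919-28953713, minus strand, GRCm38) encodes a related factor of the SOX family that acts in kidney development. It was at 32.3, 20.2 and 29.7 CPM in 43-29, 43-49 and 43-75 and at 21.2, 17.3 and 19.8 CPM in 43-26, 43-50 and 43-76. TG+ mouse 43-49 lay within the TG- range. The log2 fold change of 0.50 (95% confidence interval 0.11 to 0.88, edgeR adjusted p = 0.0634, exact permutation p = 0.2) did not pass. The estimate was 0.67 without 43-49 (edgeR adjusted p = 0.00471), 0.35 without 43-29 (0.184), and 0.42 without 43-50 (0.178) or without 43-75 (0.183). Over all alternatives the estimate ran from 0.35 to 0.67 and the adjusted p from 0.00397 to 0.184.

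Prom1 (ENSMUSG00000029086, chromosome 5: 43993620-44102032, minus strand, GRCm38) encodes CD133, a membrane glycoprotein of scattered tubule and parietal cells that take part in regrowth. The TG+ mice had 129, 91.6 and 125 CPM (43-29, 43-49, 43-75) and the TG- mice 102, 60.8 and 79.4 CPM (43-26, 43-50, 43-76). Here 43-26 was again above 43-49. The log2 fold change was 0.51 (95% confidence interval 0.06 to 0.96, edgeR adjusted p = 0.0919, exact permutation p = 0.2). The estimate moved to 0.71 without 43-26 (edgeR adjusted p = 0.0287) and to 0.34 without 43-50 (0.215), within adjusted p-values of 0.00371 to 0.230 over all alternatives. Prom1 overlaps the annotated gene Gm16401, which is also in the table.

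Cd24a (ENSMUSG00000047139, chromosome 10: 43578284-43584265, plus strand, GRCm38) encodes a small glycoprotein anchored in the membrane, used together with CD133 to mark those scattered cells and present on B lymphocytes too. It was at 56.5, 48.3 and 51.8 CPM in 43-29, 43-49 and 43-75 and at 41.1, 38.5 and 40.7 CPM in 43-26, 43-50 and 43-76. Both groups were narrow and did not overlap. Cd24a rose only 1.30-fold (log2 fold change 0.38, SE 0.07, 95% confidence interval 0.22 to 0.54, edgeR adjusted p = 0.00654, exact permutation p = 0.1), so it failed the fold limit while passing 0.01, and its adjusted p stayed at or below 0.0288 over all alternatives.

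Taking the 10 genes by mouse, 5 of them (Havcr1, Lcn2, Cd44, Sox9 and Cd24a) had every TG+ mouse above every TG- mouse, as did 23.4% of all tested genes. TG+ mouse 43-29 was the highest of its group in 10 of 10 genes, whereas it was highest in 33.1% of all tested genes. TG+ mouse 43-49 was the lowest of its group in 7 of the 10 and 43-75 in the other 3, against 37.7% and 28.8% of all tested genes. On the TG- side 43-26 was highest in 7 of 10 genes and 43-50 in 3, against 34.9% and 35.4% of all tested genes. The TG- mouse 43-76 was lowest in 6, against 31% of all tested genes. The order was much alike in the separate kidneys, with 43-29 highest of the TG+ mice in 9 of 10 genes by kidney 1 and in 9 of 10 by kidney 2. Within the 3 pairs named by the table, the TG+ mouse was the higher one in all 3 pairs for 8 of the 10 genes, Spp1 and Clu being the others, and for 32.4% of all tested genes. Vcam1, Sox4 and Prom1, whose groups overlapped, were among the 8. These orders are descriptions, since genes are not independent replicates.

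The kidneys of a mouse differed less than the mice of a group. The pooled SD between kidneys was smaller than that between mice for 10 of 10 genes on the log2 scale. It was 0.33 against 1.02 for Havcr1, 0.13 against 0.56 for Vcam1 and 0.03 against 0.33 for Prom1. For Lcn2 (0.49 against 0.58) and Cd44 (0.23 against 0.28) the kidneys differed nearly as much as the mice. The medians over 19205 genes with reads in every library were 0.0987 between kidneys and 0.131 between mice, so the mice spread more widely than in a typical gene for 8 of the 10, while Spp1 (0.13) was near that median and Cd24a (0.08) below it.

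Levels of different genes can be set side by side only per length. The RPKM values that the authors deposited could not serve here, because for genes with several transcripts their divisor was mostly not an exon length. For 83.9% of 14631 genes with 1 transcript the divisor lay within 1% of the length of that transcript. It was 48348 bases for Cd44, whose annotated exons cover 6776 bases, and for 30.3% of 18011 genes with several transcripts it lay within 1% of the summed length of all annotated transcripts, against 1.82% for the exon length. Normalized CPM was therefore divided by the exon length in GENCODE M21, in kilobases. That release may not be the one behind the counts. For Sox4 and Sox9, with 1 transcript each, the divisor was 6548 and 4719 bases against exon lengths of 4795 and 4135. For Vcam1 (5914 against 8870) and Cd24a (1807 against 2580) it was shorter than the exons. The order of genes with near levels, such as Sox4 and Vcam1, is thus uncertain.

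On that scale Spp1 was the most abundant, at 394 ± 26.7 CPM per kilobase in TG+ and 362 ± 40.1 in TG- (SD, n = 3 mice each), followed by Clu with 103 ± 10.5 and 84.8 ± 13.2. Cd24a (20.2 ± 1.61 in TG+ and 15.5 ± 0.534 in TG-) and Prom1 (16.0 ± 2.85 and 11.3 ± 2.89) came next, with Cd24a the higher of the pair in each TG+ mouse. Havcr1 was at 8.81 ± 3.03 CPM per kilobase in TG+ and 1.27 ± 0.924 in TG-. Its TG+ level overlapped in spread with that of Sox4 (5.71 ± 1.34), which in turn overlapped with that of Vcam1 (3.89 ± 1.09). Below them stood Cd44, at 1.79 ± 0.130 CPM per kilobase in TG+ and 0.636 ± 0.175 in TG-, then Lcn2 (0.519 ± 0.0989 in TG+) and Sox9 (0.289 ± 0.0916 in TG+). The 3 genes with the highest level per kilobase did not reach a 2-fold change.

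Other genes of tubule injury and repair were read from a list of 36, all of them tested. Of these, 6 were called higher and 0 lower by edgeR (16 higher and 0 lower at 0.05), 31 of 36 estimates lay above 0 and the median log2 fold change was 0.77. Of all tested genes 51.8% had estimates above 0, 3.77% were called higher and 15.4% were higher at 0.05. At an unadjusted p below 0.05 edgeR gave 19 higher and 0 lower, against 21.9% and 17.2% of all genes, and DESeq2 also called 0 lower. Cdkn1a, the p21 inhibitor of cell division, was at 78.1, 56.9 and 67.0 CPM in 43-29, 43-49 and 43-75 and at 15.4, 8.32 and 9.99 CPM in 43-26, 43-50 and 43-76, a rise of 2.59 on the log2 scale (edgeR adjusted p = 2.45e-04). Every TG+ mouse was several times above every TG- mouse. Atf3, a stress-induced transcription factor, rose by 2.18 on the log2 scale, from 1.28 ± 0.445 to 5.79 ± 0.254 CPM (SD, n = 3 mice each; edgeR adjusted p = 6.88e-04). Anxa2, an annexin of the cell membrane, rose by 1.53 (edgeR adjusted p = 4.63e-04), Cp, the copper oxidase ceruloplasmin, by 1.10 (8.00e-04) and Plaur, the urokinase receptor, by 1.21 (0.00380) on the log2 scale. Krt19, a keratin of simple and duct epithelia, rose by 1.91 (edgeR adjusted p = 0.00803).

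Cdkn1a, Atf3, Anxa2 and Cp kept the call whichever mouse was left out. Krt19 lost it without 43-29, 43-49, 43-50, 43-75 or 43-76 (edgeR adjusted p 0.0111 to 0.0322) and with kidney 2 alone, and Plaur without 43-29, 43-50, 43-75 or 43-76 (0.0126 to 0.0180), so that 4 genes were called without 43-29, 43-50 or 43-75. Just outside the call, and named after their values were seen, Krt20 had a log2 fold change of 3.61 (SE 0.73, edgeR adjusted p = 0.0101) and Myc 1.88 (SE 0.39, 0.0108). Both were called with the named pairs as a block, with DESeq2, with library size alone and without the filter. Neither was called with upper-quartile factors or without 43-29, 43-50, 43-75 or 43-76. Krt20 resembled Havcr1 in its order, with 9.99, 2.15 and 7.27 CPM in 43-29, 43-49 and 43-75 and 0.994, 0.490 and 0.0819 CPM in 43-26, 43-50 and 43-76. Across the list 43-49 was the lowest TG+ mouse in 24 of 36 genes and 43-26 the highest TG- mouse in 22 of 36. Over all tested genes these shares were 37.7% and 34.9%. Igfbp7, which had the most counted reads of the list, had a log2 fold change of -0.15 (edgeR adjusted p = 0.169). Without passing, it was lower in every TG+ than in every TG- mouse (743 to 790 against 796 to 933 CPM).

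**Figure D3:**
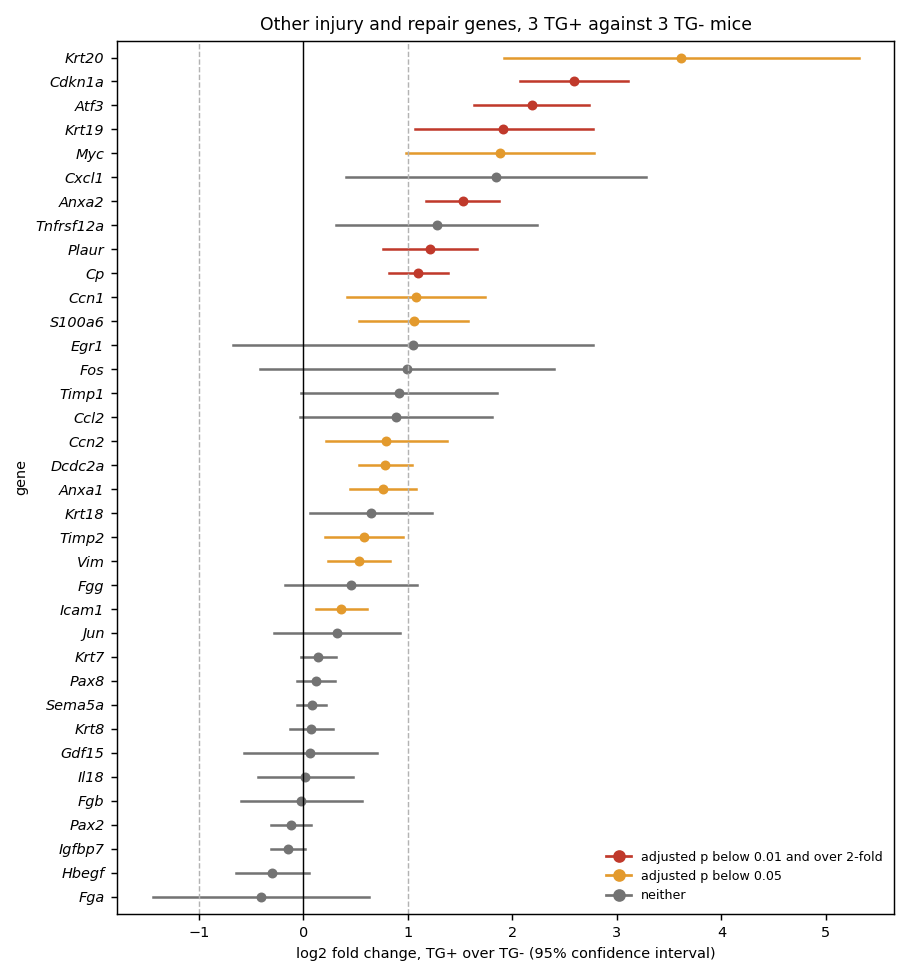
Log2 fold change of TG+ over TG- (horizontal axis) with its 95% confidence interval for 36 other genes of tubule injury and repair, sorted by estimate, from the edgeR model of 3 against 3 mice. Cdkn1a, Atf3, Krt19, Anxa2, Plaur and Cp pass both limits, and Krt20 has the highest estimate (3.61) and a wide interval.

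Partners of the 10 gene products were read from 20 genes, 17 of which were tested. Itgb7 was called higher, 0 were called lower, and at 0.05 it was 9 higher and 3 lower, with a median log2 fold change of 0.40. All tested genes gave 3.77% higher and 0.211% lower by the call, and 15.4% higher and 10.9% lower at 0.05. At an unadjusted p below 0.05 edgeR gave 4 of the 17 lower, against 17.2% of all genes. DESeq2 also called 0 lower, and it gave 4 lower at an adjusted p below 0.05. For VCAM1, the integrin genes listed as partners were Itga4 and Itgb7. This is not every VCAM1 partner, and Itgb1 was listed with the osteopontin receptors only. Itgb7 was at 6.55, 6.70 and 5.99 CPM in 43-29, 43-49 and 43-75 and at 2.94, 2.78 and 2.54 CPM in 43-26, 43-50 and 43-76 (log2 fold change 1.22, SE 0.11, edgeR adjusted p = 2.80e-04). Itga4 rose by 0.92 on the log2 scale (edgeR adjusted p = 8.71e-04). Unlike Vcam1, both were separated between the groups. Among the osteopontin receptors Itgav, Itgb1, Itgb3 and Itga9 rose at 0.05, Itgb6 fell and Itgb5 had a log2 fold change of 0.05 (edgeR adjusted p = 0.646). The lipocalin 2 receptor genes Lrp2 (megalin, log2 fold change -0.46, edgeR adjusted p = 0.00213) and Slc22a17 (-0.31, 0.0273) both fell at 0.05. For CD44, the hyaluronidase gene Hyal1 rose at 0.05 (log2 fold change 0.51, edgeR adjusted p = 0.00135). The other hyaluronidase gene, Hyal2, was lower in every TG+ than in every TG- mouse without passing (log2 fold change -0.19, edgeR adjusted p = 0.0641). Has3, which makes hyaluronan, had a log2 fold change of -0.10 (edgeR adjusted p = 0.762), while Has1 and Has2, with the same function, had at most 3 reads in every mouse.

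Several of the 10 genes are also expressed outside the tubule, so markers of other cells of the cortex were read beside them. In bulk tissue, fewer cells of a type and less RNA per cell cannot be told apart. Of all tested genes 0.211% were called lower, and at 0.05 it was 15.4% higher and 10.9% lower. At an unadjusted p below 0.05 edgeR gave 21.9% of all genes higher. Proximal tubule markers summed to 25867 to 28958 CPM in TG+ and 34321 to 36640 CPM in TG-, and 6 of 10 fell at 0.05, of which Slc22a6, an organic anion transporter, was called (log2 fold change -1.09, edgeR adjusted p = 4.82e-05). For parietal epithelium, the glomerular capsule lining known for Vcam1 and, in human kidney, for CD133 and CD24, 2 of 3 markers rose at 0.05 and the sum was 69.1 to 77.1 against 44.8 to 50.1 CPM. Thick limb and distal markers, from segments that make Spp1, had 0 of 7 past 0.05 by edgeR or DESeq2 (2 higher at an unadjusted p below 0.05) and sums of 3541 to 4852 against 3880 to 3977 CPM. Podocyte markers had 1 of 3 higher at 0.05 (435 to 521 against 335 to 397 CPM). The most abundant of these lists by CPM were Cldn1 (log2 fold change 0.68, edgeR adjusted p = 0.00187), Umod (0.06, 0.795) and Podxl (0.37, 0.0166).

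Leukocytes, which express Cd44, were read from 4 marker lists. For these and the lists after them, the shares of all tested genes are 3.77% called higher and 15.4% higher at 0.05. The 6 T cell markers summed to 8.40 to 10.7 CPM in TG+ and 4.58 to 5.44 CPM in TG-, and Cd3e, Cd4 and Cd28 were called higher. The 4 B cell markers summed to 5.60 to 9.80 against 2.27 to 3.04 CPM, with Cd79a and Cd79b called higher. Of 6 macrophage markers 5 rose at 0.05 (143 to 153 against 90.4 to 107 CPM). The mouse 43-49, lowest of its group in 7 of the 10 injury genes, had the highest T cell and B cell sums of the TG+ mice and the lowest macrophage and neutrophil sums. Only 4 of 10 neutrophil markers could be tested and 0 of them passed with edgeR, with DESeq2 or at an unadjusted p below 0.05, and Ly6g had no reads. The sums of all 10 overlapped (2.52 to 7.41 against 1.87 to 4.35 CPM), while Mmp8, too low to be tested, was higher in every TG+ than in every TG- mouse. Endothelial markers, from cells that make Vcam1, rose at 0.05 in 6 of 6 (499 to 537 against 293 to 386 CPM), and stromal markers in 4 of 6 (205 to 278 against 136 to 160 CPM). In the lists without a call, the most abundant genes by CPM were Csf1r for macrophages (log2 fold change 0.63, edgeR adjusted p = 6.61e-04), S100a9 for neutrophils (0.76, 0.389), Eng for endothelium (0.44, 0.0130) and Pdgfrb for stroma (0.74, 0.0139). The part of these cell types in the levels of the 10 genes was not tested.

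**Figure D4:**
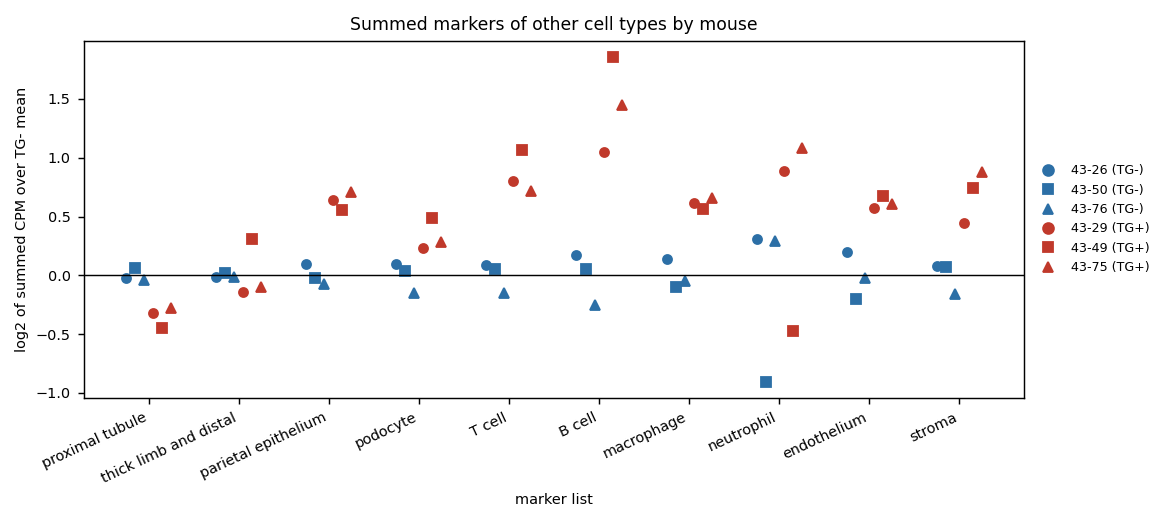
Summed CPM of each marker list in each mouse, as log2 of its ratio to the mean of the 3 TG- mice (vertical axis); TG- mice are blue and TG+ mice red, with a symbol for each mouse. The proximal tubule sums of TG+ mice lie below all TG- mice, the thick limb and neutrophil sums overlap, and the other lists lie above, 43-49 being highest for T and B cells.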

How the data were processed

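RNA from 12 kidney cortex libraries (3 TG+ and 3 TG- mice, 2 kidneys each) was sequenced by the authors as 51-bp single-end reads. They deposited a table of raw read counts for 37681 Ensembl genes, without normalization, and RPKM values that the authors scaled after adding 1 to each count. The submitters' processing notes name the build mm9. The study's methods name the Tuxedo tools as the main software. The annotation release, the counting program and the handling of strand are not given in the sources used here. The authors' fold changes, p-values and q-values in the table, and their log2 RPKM columns, were not used.

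The deposited RPKM served only to find their divisor. Symbols and exon lengths came from GENCODE M21 by Ensembl identifier (32642 genes, 86.6%), as did the GRCm38 positions, and promoter windows from RefSeq (GRCm38.p6). Counts of the 2 kidneys of a mouse were summed, filtered with filterByExpr, normalized by TMM and compared by the quasi-likelihood test of edgeR 4.0.16, run with limma 3.58.1 under R 4.3.3. The mouse is the replicate. The procedure was tested on simulated data. Libraries held 21888584 to 33704850 counted reads. Among the 10 genes, counting error is largest for Lcn2 and Sox9, with as few as 20 reads per mouse. Some genes of the other lists had fewer, such as Krt19 (18) and Krt20 (4). Each confidence interval is the 95% interval of the edgeR fit. Alternatives were DESeq2 1.42.0, upper-quartile factors, library size alone, no filter, unsummed libraries, each kidney alone, each mouse left out and a 0.05 threshold, and, added after the data were seen, a block for the 3 pairs of mice that the name of the table lists.

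The 10 genes, the lists and the tests were chosen with earlier results of these data known. By the naming rule, all 10 genes were named, with Hif1a as a check and, from every other list, the genes past the call or, where a list had none, its most abundant gene by mean CPM. Igfbp7, Krt20, Myc, Ly6g, Mmp8 and the partner genes other than Itgb7 fall outside that rule and were named after their values were seen.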

Additional observations from a re-analysis of the deposited data

How the results depend on the processing

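With 3 mice in a group, the number of the 10 genes called higher was 2 and ranged from 1 (without 43-29 or without 43-50) to 3 when single mice were left out. It was 4 with each library as a sample (Havcr1, Vcam1, Cd44 and Sox9), 1 with kidney 2 alone (Cd44), 5 at an adjusted p below 0.05 without a fold and 4 at 0.05 with a 2-fold change. DESeq2 called 3, adding Sox9. Treating libraries as samples counts the kidneys of a mouse as independent. For the other injury and repair genes the 6 higher calls became 10 with DESeq2, 12 with each library as a sample, 16 at 0.05 without a fold and 10 at 0.05 with it. For ligands and receptors the 1 higher call became 3 with library size alone, 2 with kidney 1 alone, 3 with kidney 2 alone and 9 at 0.05 without a fold, where the 0 lower calls became 3. The cause of these differences was not tested. No estimate of the 10 genes changed sign under any of 14 alternatives. With the pairs in the name of the table as a replicate block, added after the data were seen, 4 of the 10 genes (Havcr1, Vcam1, Cd44 and Sox9) and 11 other injury genes were called higher and 0 lower, and the 1 ligand or receptor call stayed at 1. Shares of all tested genes are given here for the main fit only, so the counts under other fits have none beside them. Over 19399 genes the deviations of paired mice from their group means correlated at 0.307 (43-29 and 43-26), 0.283 (43-49 and 43-50) and -0.0599 (43-75 and 43-76), so 43-75 and 43-76 did not correlate best with each other, and the unpaired fit was kept for the calls. Among the 10 genes, depth limits Lcn2 and Sox9 most.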
